A study of Mus musculus with 2 samples.

Results

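The genes described here are 10 ubiquitin ligase genes of striated muscle, taken by symbol from the 19465 genes counted in spatial transcriptomes of the mouse heart. They are *Fbxo32*, the TRIM genes *Trim63*, *Trim54*, *Trim55* and *Trim72*, and the ASB genes *Asb2*, *Asb8*, *Asb10*, *Asb14* and *Asb15*. One section came from a control mouse (α-MHC-MerCreMer+/−) and 1 from a TOP2B transgenic mouse (α-MHC-MerCreMer+/− with the TOP2B LSL allele), and the mice were given 1 intraperitoneal dose of 80 mg/kg of tamoxifen. In the transgenic mouse, tamoxifen lets Cre remove a stop cassette in front of human *TOP2B*, a DNA topoisomerase gene placed at the Rosa26 locus. Cre is driven by the α-MHC promoter, which is active in cardiomyocytes, and the control carried the same Cre, so both hearts had it active. Per the study's methods the mice of this line were treated at 6 weeks of age, and the interval between tamoxifen and these 5-μm sections is not given in the sources used here. Each group is 1 section of 1 heart, so a difference between the sections cannot be told apart from a difference between 2 animals or 2 planes of section. The comparison asks how the genes differ between a heart with the transgene switched on and a heart with Cre alone.

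A ubiquitin ligase attaches ubiquitin to chosen proteins, most often marking them for the proteasome, and so sets how long muscle proteins last. *Fbxo32* encodes atrogin-1, an F-box protein that brings substrates to a cullin 1 ligase, and it is known with *Trim63* as one of the genes that rise when muscle wastes. *Trim63*, *Trim55* and *Trim54* encode MuRF1, MuRF2 and MuRF3, RING ligases that sit at the sarcomere and on microtubules. *Trim72* encodes MG53, a RING ligase that also seals tears in the muscle cell membrane. The ASB proteins carry ankyrin repeats and a SOCS box, through which they bring substrates to cullin 5 ligases, and *Asb2* in muscle is known for degrading proteins of the cytoskeleton.

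The promoters of the genes with the greatest differences between the sections are printed below with that of *Trim63*, as a view of the sequence from which these transcripts start. They come from RefSeq on GRCm38.p6, run from 250 bases before to 50 bases after the start of transcription, and are written 5′ to 3′ on the strand of the gene. Entries were found for 8 of the 10 genes, and *Fbxo32* and *Trim55* had none. Capitals mark matches, on either strand, to TGTTTAC (a core that FOXO factors bind), to the E-box CANNTG and to the TATA element TATAAA. Where 2 matches touch or overlap they form 1 run of capitals.
Trim63 (GRCm38.p6, chr4:134314870-134315169, plus strand): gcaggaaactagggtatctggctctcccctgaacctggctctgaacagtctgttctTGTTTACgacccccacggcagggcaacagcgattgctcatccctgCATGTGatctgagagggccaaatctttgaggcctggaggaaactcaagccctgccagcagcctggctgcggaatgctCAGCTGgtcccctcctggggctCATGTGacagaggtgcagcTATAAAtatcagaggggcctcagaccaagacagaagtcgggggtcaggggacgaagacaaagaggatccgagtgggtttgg
Asb2 (GRCm38.p6, chr12:103355952-103356251, minus strand): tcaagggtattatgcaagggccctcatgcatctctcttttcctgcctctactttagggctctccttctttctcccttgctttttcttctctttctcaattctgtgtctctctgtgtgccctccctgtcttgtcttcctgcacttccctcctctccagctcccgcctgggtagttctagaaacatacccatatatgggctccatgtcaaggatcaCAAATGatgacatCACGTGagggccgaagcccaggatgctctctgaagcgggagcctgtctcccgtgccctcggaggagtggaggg
Asb10 (GRCm38.p6, chr5:24540929-24541228, minus strand): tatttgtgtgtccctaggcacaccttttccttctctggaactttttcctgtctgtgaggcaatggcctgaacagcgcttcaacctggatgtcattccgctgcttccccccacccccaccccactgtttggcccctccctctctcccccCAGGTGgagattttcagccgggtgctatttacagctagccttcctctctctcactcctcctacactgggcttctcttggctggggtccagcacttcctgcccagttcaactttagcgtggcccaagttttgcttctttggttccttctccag
Asb14 (GRCm38.p6, chr14:26894364-26894663, plus strand): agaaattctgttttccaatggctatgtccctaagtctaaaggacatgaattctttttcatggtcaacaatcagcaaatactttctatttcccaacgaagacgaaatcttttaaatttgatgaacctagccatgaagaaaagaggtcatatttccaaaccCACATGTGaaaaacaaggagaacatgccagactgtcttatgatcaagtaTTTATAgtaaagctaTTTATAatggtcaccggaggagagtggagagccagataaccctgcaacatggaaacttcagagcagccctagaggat
Asb15 (GRCm38.p6, chr6:24527894-24528193, plus strand): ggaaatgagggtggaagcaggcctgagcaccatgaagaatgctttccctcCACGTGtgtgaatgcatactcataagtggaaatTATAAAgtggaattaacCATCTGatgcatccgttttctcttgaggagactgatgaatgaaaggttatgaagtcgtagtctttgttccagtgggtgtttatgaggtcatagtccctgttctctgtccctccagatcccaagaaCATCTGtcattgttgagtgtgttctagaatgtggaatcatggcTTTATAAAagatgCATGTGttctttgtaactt
The FOXO core was found in the window of *Trim63* alone among these 8 genes, 194 bases upstream of the start, and 3.65% of all 32851 promoters of the same length hold it. *Trim63* also held a TATA element 31 bases upstream, and *Asb14* held 2, at 42 and 27 bases upstream on the opposite strand. TATAAA was present in 13.6% and CANNTG in 72.3% of all promoters. *Asb15* had 3 TATA and 4 E-box matches, and *Asb10* had 1 E-box match. Of the TATA matches of *Asb15*, 1 lay 167 bases upstream, and 2 that overlap lay 18 and 20 bases downstream of the start. Of its E-box matches, 1 lay 31 bases downstream. *Asb2* has a second start site, whose promoter is not printed, and the counts do not show which start was used. A match in these letters is a description of the sequence and not a site of binding.

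The control section held 1256 spots over tissue and 14376300 UMIs, and the transgenic section 924 spots and 12953389 UMIs. The median spot held 11335.5 and 14531 UMIs, and 1 transgenic spot held none. The 15 cardiomyocyte genes used for ranking spots, such as *Actn2*, *Ttn* and *Ryr2*, were all detected and made up 4.16% of control and 3.71% of transgenic UMIs. Fibroblast genes made up 0.213% and 0.648%, macrophage genes 0.0321% and 0.0631%, endothelial genes 0.196% and 0.199%, and erythroid genes 0.215% and 2.04%. Atrial genes (0.0051% and 0.015%) and skeletal muscle genes (0.00104% and 0.00473%) were the lowest of these lists. The part of these other cell types in the results on the 10 genes was not tested. Mouse *Top2b*, whose probes need not read the human transgene, had 1531 control and 1318 transgenic UMIs, so it does not check the labels. *Nppa*, a stress gene of the ventricle, stood at 274 and 20249.5 CPM.

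A group of spots stood apart from muscle in both sections. In 8 control and 45 transgenic spots the share of cardiomyocyte genes was under 50% of the section's median, and the erythroid genes made up a median of 52.6% and 79.5% of the UMIs of those that held any. In the transgenic section 41 of them formed 1 unbroken patch, which lay inside an opening of the tissue. These spots are called spots led by hemoglobin below, though they were chosen by the share of cardiomyocyte genes. They were also shallow. Those that held any UMIs had a median of 857 in the control and 4425 in the transgenic section. They held 0.0478% of control and 1.48% of transgenic UMIs, and 6 and 39 UMIs of the 10 genes. Where leaving them out changed a result on position, both values are given.

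In CPM all 10 genes had a lower level in the transgenic section than in the control section, and with the UMIs of the cardiomyocyte genes as the scale 9 did, *Trim54* then standing at 0.02 on the log2 scale. Together they took 0.243% of control and 0.127% of transgenic UMIs. The interval of every gene's ratio lay below 0 on the log2 scale, as did that of 17% of all tested genes. An interval leaves 0 more readily for a gene with more UMIs, and the tested genes reach down to 20 UMIs. *Asb15*, the least counted of the 10, had 260 control and 24 transgenic UMIs. The same limit holds for the shares of all genes set beside quadrants and intervals below. The median log2 ratio was -0.89, and the median of all 15236 genes with at least 20 UMIs was 0.20. The 15 cardiomyocyte genes used for ranking spots had a median of -0.42, with 10 below 0 and 3 lower by at least 2-fold. *Trim54* (-0.14), *Asb8* (-0.31) and *Fbxo32* (-0.34) stood above that median. *Tnnt2*, at 0.17 with 188198 control and 190686 transgenic UMIs, was the most counted of the 15 and weighs most in the scale of their UMIs. *Asb2*, *Asb10*, *Asb14* and *Asb15* were lower by at least 2-fold, where 5.61% of all tested genes were, and none of the 10 was higher by at least 2-fold, where 13.7% of all tested genes were. The count of 4 of 10 is a description of these 2 sections, with no test. In sums over tissue, fewer cells of a type and less RNA per cell cannot be told apart.

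**Figure D1:**
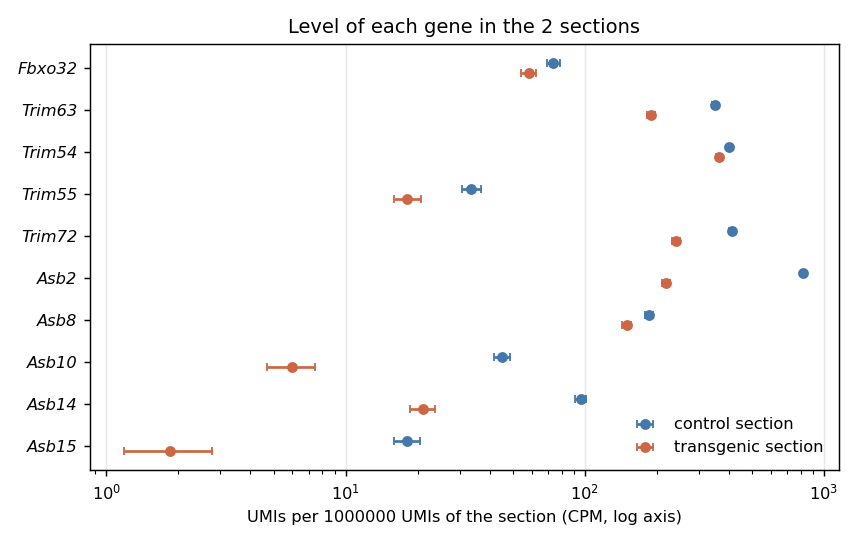
Level of each gene in CPM (horizontal log axis) in the control section (blue) and the transgenic section (orange), with the exact 95% Poisson interval of counting error. All 10 orange points lie to the left of the blue ones, nearest for *Trim54* (402 and 364 CPM) and farthest for *Asb15* (18.1 and 1.85 CPM).

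*Fbxo32*, the F-box gene, was counted 1063 times in the control and 757 times in the transgenic section. Its level was 73.9 CPM (95% interval 69.6 to 78.5) in the control and 58.4 CPM (54.4 to 62.8) in the transgenic section. The intervals do not overlap, yet the gap was small, at a log2 ratio of -0.34 (-0.48 to -0.20). Of all tested genes, 20.1% had a lower ratio. A UMI of *Fbxo32* was found in 55.7% of control and 55.4% of transgenic spots, and after thinning every spot to 8134 UMIs the expected shares were 45.4% and 39.0%. Spots with fewer UMIs, 140 in the control and 78 in the transgenic section, were dropped in thinning. The share of spots without thinning was nearly equal while transgenic spots were deeper.

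The 3 MuRF genes differed from each other in how far apart the sections were. *Trim63* had 5038 control and 2449 transgenic UMIs, or 350 CPM (341 to 360) and 189 CPM (182 to 197), a log2 ratio of -0.89 (-0.96 to -0.82). *Trim55* had 482 and 235 UMIs, or 33.5 CPM (30.6 to 36.7) and 18.1 CPM (15.9 to 20.6), also at -0.89 (-1.12 to -0.66). *Trim54* had 5786 and 4719 UMIs, or 402 CPM (392 to 413) and 364 CPM (354 to 375), at only -0.14 (-0.20 to -0.09). The transgenic RNA level was thus 1.85-fold lower for *Trim63* and *Trim55* and 1.105-fold lower for *Trim54*.

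The makeup of the MuRF group does not depend on how the sections are scaled to each other. *Trim63* gave 44.6% (exact 95% interval 43.6 to 45.5) of the 11306 control MuRF UMIs and 33.1% (32.0 to 34.2) of the 7403 transgenic ones. *Trim54* gave 51.2% (50.2 to 52.1) and 63.7% (62.6 to 64.8). *Trim55* gave 4.26% (3.90 to 4.65) and 3.17% (2.79 to 3.60). These shares mix probe strength with RNA level, so their change between the sections is what can be read. *Trim54* gained share in the transgenic section and the other 2 genes lost it.

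*Trim72*, the membrane repair gene, had 5936 control and 3123 transgenic UMIs. Its level was 413 CPM (402 to 423) and 241 CPM (233 to 250), a log2 ratio of -0.78 (-0.84 to -0.71). It was found in 98.2% of control and 90.4% of transgenic spots, and thinned in 96.6% and 83.7%. *Trim63* followed the same course, with 95.5% and 87.2% of spots and thinned shares of 93.4% and 78.5%. For *Trim54* the shares were 97.2% and 93.5%, thinned 96.0% and 93.4%. For *Trim55*, the TRIM gene with the fewest UMIs, they were 32.0% and 22.1%, thinned 24.1% and 13.9%.

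The ASB genes held the widest differences of the 10. *Asb2* was the most counted, with 11711 control and 2829 transgenic UMIs. Its level was 815 CPM (800 to 829) in the control and 218 CPM (210 to 227) in the transgenic section, 3.73-fold lower (95% interval 3.58 to 3.89), or -1.90 (-1.96 to -1.84) on the log2 scale. Of all tested genes, 0.807% had a lower ratio than *Asb2*.

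*Asb14*, an ASB gene known from heart and skeletal muscle, had 1386 and 273 UMIs. Its level was 96.4 CPM (91.4 to 102) and 21.1 CPM (18.7 to 23.7), 4.57-fold lower (4.01 to 5.23). *Asb10* had 650 and 77 UMIs, or 45.2 CPM (41.8 to 48.8) and 5.94 CPM (4.69 to 7.43), 7.61-fold lower (6.0 to 9.76). Both groups of intervals are far apart, and 0.532% and 0.105% of all tested genes had lower ratios.

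*Asb15* had 260 control and 24 transgenic UMIs. Its level was 18.1 CPM (15.9 to 20.4) and 1.85 CPM (1.19 to 2.76), 9.76-fold lower with a wide interval (6.42 to 15.5). Its transgenic level was close to that of 19 genes of other organs that heart should lack, which stood at a median of 0.463 CPM and at most 1.39 CPM in that section. The fold of *Asb15* is therefore measured against a count near the background of the assay.

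*Asb8* was the exception among the 5 ASB genes. It had 2671 and 1940 UMIs, or 186 CPM (179 to 193) and 150 CPM (143 to 157), a log2 ratio of -0.31 (-0.40 to -0.23). Within the 16678 control and 5143 transgenic UMIs of these 5 genes, its share was 16.0% (15.5 to 16.6) and 37.7% (36.4 to 39.1). The share of *Asb2* was 70.2% and 55.0%, that of *Asb14* 8.31% and 5.31%, that of *Asb10* 3.90% and 1.5%, and that of *Asb15* 1.56% and 0.467%. Of the 5, *Asb8* alone took a larger share in the transgenic section, whatever the scaling between the sections. Other ASB genes are not in these shares, among them *Asb11* with 2426 control and 2513 transgenic UMIs.

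The shares of spots followed these levels. *Asb2* was found in 99.1% of control and 87.4% of transgenic spots, and the thinned shares were 99.9% and 80.1%. *Asb14* was found in 63.5% and 24.6% (thinned 54.2% and 16.1%), and *Asb10* in 39.3% and 7.90% (thinned 30.9% and 4.70%). *Asb15* was found in 18.7% and 2.60% (thinned 13.8% and 1.66%), where a gene of another organ was found in at most 1.95% of transgenic spots. No transgenic spot held more than 1 UMI of *Asb15*. *Asb8* was found in 84.2% and 83.1% (thinned 76.7% and 71.1%).

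**Figure D2:**
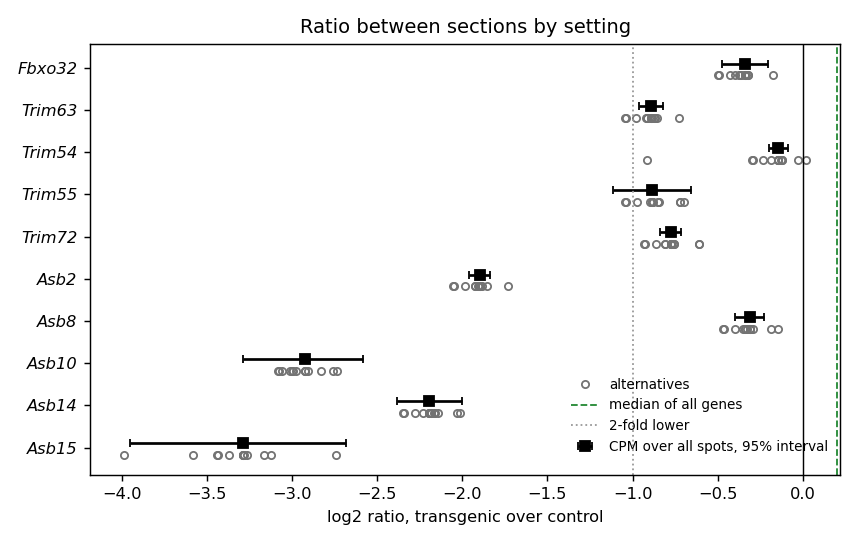
Log2 ratio of transgenic over control (horizontal axis) for each gene, with the CPM ratio over all spots and its exact 95% interval (black squares), the same ratio under 14 other settings (open circles), the median of all tested genes (0.20, dashed) and a 2-fold lower level (dotted). The circles of *Asb2*, *Asb10*, *Asb14* and *Asb15* all lie left of the dotted line, and *Trim54* has 1 circle at -0.92 far from its others and 1 just above 0.

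The spread inside a section was read from 4 quadrants split at the middle of its tissue. For 9 of the 10 genes the highest transgenic quadrant was still lower than the lowest control quadrant, which was so for 13.05% of all tested genes. *Asb2* ranged from 802 to 829 CPM over the control quadrants and from 189 to 259 CPM over the transgenic ones. *Asb10* ranged from 40.9 to 48.5 and from 5.40 to 6.37 CPM, and *Asb15* from 14.8 to 21.2 and from 0.954 to 3.09 CPM. *Trim63* ranged from 340 to 363 and from 171 to 217 CPM, and *Fbxo32*, the closest of the 9, from 69.3 to 80.3 and from 49.6 to 67.5 CPM. *Trim54* was the gene whose quadrants overlapped, at 343 to 434 and 320 to 397 CPM. Without the spots led by hemoglobin the quadrants of *Fbxo32* overlapped too, at 69.3 to 80.5 and 49.6 to 70.9 CPM, and those of 8 genes stayed apart, beside 12.8% of all tested genes. Quadrants of 1 heart are not replicates of a condition.

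The sections were then compared under other scalings, other choices of spots and other floors of UMIs for a gene to be tested. The 2 settings that changed only this floor cannot move a gene's own ratio. Over 14 such settings *Asb2*, *Asb10*, *Asb14* and *Asb15* were lower by at least 2-fold in all, beside 3.54% to 7.955% of all genes. *Trim63* and *Trim55* passed 2-fold under 2 settings, the edgeR and DESeq2 size factors, which moved the median of all genes by -0.16 and -0.15. *Trim54* was below 0 in 13 of 14 and stood at 0.02 per UMI of the cardiomyocyte genes. Its lowest value, -0.92, came from a mean over spots in which 1 control spot with 3 UMIs, 1 of them *Trim54*, counted as 3333 UMIs per 10000. Over spots with at least 1000 UMIs the same mean gave -0.19.

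Position in the tissue was read first from Moran's I, which is near 0 when neighboring spots are unrelated and rises when they are alike. In the control section the deposited values of the 10 genes ran from 0.0021 for *Asb15* to 0.07 for *Asb2*, where the median of 7221 genes with at least 200 UMIs was 0.0042. Low as they are, the values of *Asb2*, *Trim72*, *Trim63* and *Trim54* were above those of 97.9%, 95.7%, 95.6% and 93.1% of these genes. In the transgenic section they reached 0.29 for *Trim54*, 0.24 for *Trim72*, 0.20 for *Asb2*, 0.14 for *Asb8* and 0.13 for *Trim63*, with a median of 0.035 over 7590 genes. Those of *Trim54*, *Trim72* and *Asb2* were above 94.3%, 92.5% and 90.6% of these. *Fbxo32* stood at 0.06, and *Trim55*, *Asb10*, *Asb14* and *Asb15* at 0.02 or less. The 5 highest were also the 5 most counted in that section.

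Leaving out the spots led by hemoglobin lowered the highest transgenic values, and that of *Trim63* fell to near 0. Recomputed over all transgenic spots, Moran's I was 0.31 for *Trim54*, 0.24 for *Trim72*, 0.22 for *Asb2*, 0.15 for *Asb8* and 0.13 for *Trim63*, close to the deposited values. Over the 879 spots left it was 0.08 for *Trim54*, 0.11 for *Trim72*, 0.10 for *Asb2* and 0.07 for *Asb8*. For *Trim63* it was -0.0014, above that of 25.4% of the genes ranked. Likeness between neighboring spots was thus not seen for *Trim63* without the 45 spots, while its transgenic quadrants still ran from 171.5 to 217 CPM. The median Moran's I of all genes was 0.041 over all spots and 0.016 over those left. Over those left, the values of *Trim72*, *Asb2*, *Trim54* and *Asb8* were above those of 91.5%, 90.1%, 87.9% and 85.9% of genes. The deposited values of *Asb8* and *Trim63* had been above those of 85.9% and 85.7%. In the control section, over 1248 spots, the values ran from 0.0033 for *Asb15* to 0.05 for *Trim72*, above 96.5% of genes, and that of *Asb2* was 0.03, above 88.9%. Recomputed over all control spots, that of *Asb2* was 0.098.

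**Figure D3:**
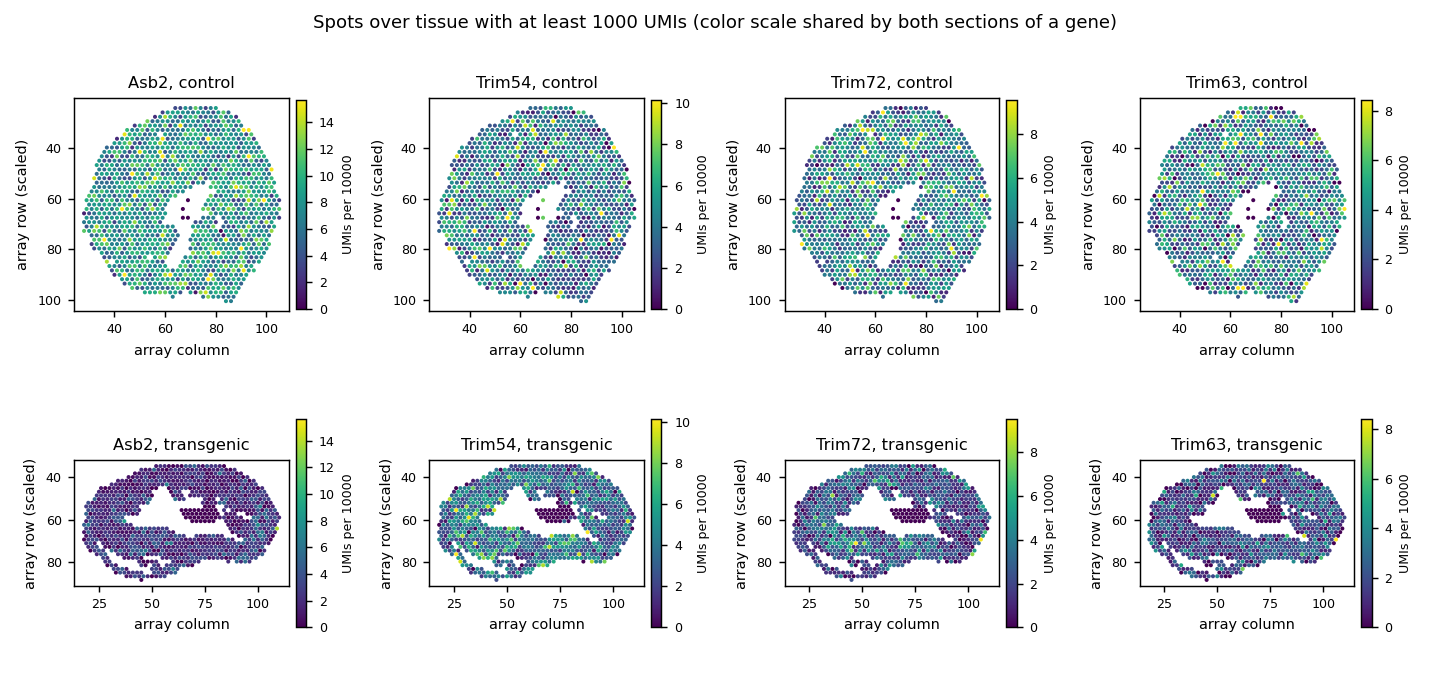
Maps of *Asb2*, *Trim54*, *Trim72* and *Trim63* over spots with at least 1000 UMIs, by array column and scaled array row, in the control section (top) and the transgenic section (bottom). Color gives UMIs per 10000 UMIs of the spot on a scale shared by both sections of a gene and ending at a 99th percentile. The dark patch inside the opening of the transgenic section holds the spots led by hemoglobin, and outside it *Asb2* is dim in the whole transgenic section while *Trim54* spans a like range of colors in both.

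Spots at the tissue edge were compared with interior spots, which have 6 neighbors over tissue. There were 230 edge and 1026 interior spots in the control section and 311 and 613 in the transgenic section. *Trim72* was slightly lower at the edge in both, with log2 ratios of -0.14 (-0.25 to -0.03) and -0.14 (-0.26 to -0.03). The intervals of 2.89% of all genes in the control and 5.78% in the transgenic section lay below 0. Those of the other 9 of the 10 held 0 in both sections. Without the spots led by hemoglobin *Trim72* stood at -0.13 and -0.12, and its intervals still lay below 0.

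Spots were next ranked by the share of cardiomyocyte genes, none of which is among the 10, and the highest tercile of spots was set against the lowest, without the spots led by hemoglobin. In the control section the intervals of all 10 genes held 0, where those of 2.67% of all genes lay above 0 and 6.02% below. The control terciles differed little in the measure itself, with median shares of 3.82% and 4.46% in the lowest and the highest, where the transgenic ones had 3.08% and 4.48%, so the sections are not compared here. In the transgenic section 5 genes were higher in the spots richest in cardiomyocyte genes, by intervals above 0, as were 9.71% of all genes with at least 20 UMIs there. *Trim72* stood at 206, 235 and 293 CPM from the lowest to the highest tercile, a log2 ratio of 0.51 (0.38 to 0.63), and *Trim54* at 328, 372 and 410 CPM, a log2 ratio of 0.32 (0.22 to 0.42). The ratios of *Trim55*, *Asb8* and *Asb14* were 0.67, 0.21 and 0.68. *Trim63* (-0.09), *Fbxo32* (-0.15) and *Asb2* (0.08) had intervals that held 0. *Asb2* at 0.08 (-0.06 to 0.21) had been at 0.15 with an interval above 0 when the spots led by hemoglobin were kept.

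Ranking by collagen genes gave the opposite order. In the transgenic section *Trim54*, *Trim55*, *Trim72*, *Asb2*, *Asb8* and *Asb14* were lower in the tercile of spots richest in collagens, as were 10% of all genes. The same 6 were lower with the spots led by hemoglobin kept. The widest was *Trim55*, with 23.1, 19.7 and 12.3 CPM and a log2 ratio of -0.91 (-1.42 to -0.41). *Asb14* stood at 26.5, 19.7 and 17.8 CPM, and *Asb2* at 238, 230 and 196 CPM. *Trim63* (0.07) and *Fbxo32* (0.03) had intervals that held 0. No interval of the 10 left 0 in the control section, where those of 9.53% of all genes lay above 0 and 3.27% below. The median collagen share of the control terciles ran from 0.172% to 0.319%, against 0.383% to 1.17% in the transgenic section.

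The transgenic heart also expressed *Myh7*, the slow myosin heavy chain that the adult mouse ventricle keeps low. Spots with at least 20 UMIs of *Myh6* and *Myh7* were ranked by the *Myh7* share of these. *Asb2* stood at 181, 225 and 259 CPM from the lowest to the highest tercile, a log2 ratio of 0.52 (0.39 to 0.65). *Fbxo32* at 0.34 (0.08 to 0.59) and *Trim63* at 0.28 (0.14 to 0.42) were also higher in the spots with the highest *Myh7* share. *Trim72* went the other way, at 276, 244 and 210 CPM, at -0.40 (-0.52 to -0.27), and *Trim54* did so slightly, at -0.14 (-0.24 to -0.04). Of all genes, 14.3% were higher and 7.23% lower in these spots. The intervals of the other 5 genes held 0, and the calls were alike with the spots led by hemoglobin kept. Even in the spots with the highest *Myh7* share, *Asb2* was at 259 CPM, where the lowest control quadrant was at 802 CPM.

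**Figure D4:**
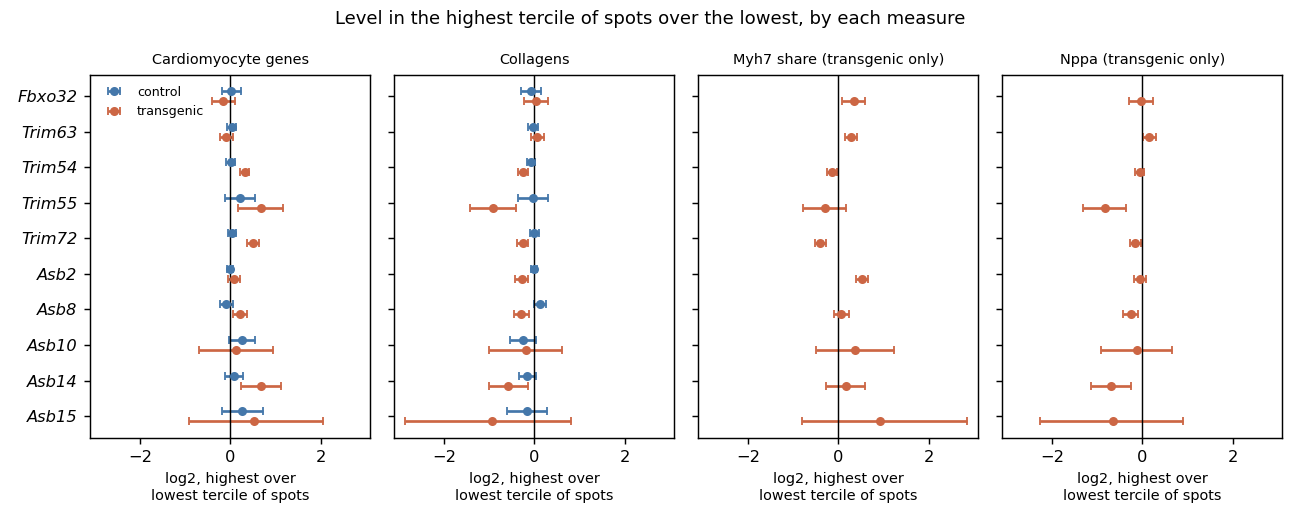
Log2 ratio of each gene between the highest and the lowest tercile of spots ranked by cardiomyocyte genes, collagens, the *Myh7* share of *Myh6* and *Myh7*, and *Nppa*, without the spots led by hemoglobin, with exact 95% intervals of counting error. Blue points (control) lie on 0 within their intervals, and among the orange points (transgenic) *Trim72* lies at 0.51 by cardiomyocyte genes and at -0.40 by *Myh7* share, while *Asb2* lies at 0.52 by *Myh7* share.

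Spots were also ranked by *Nppa*, in the transgenic section alone. Levels were lower in the spots with most *Nppa* for *Trim55* (-0.83), *Asb14* (-0.69), *Asb8* (-0.26) and *Trim72* (-0.16), as for 10.2% of all genes. With the spots led by hemoglobin kept, the interval of *Trim72* held 0, at -0.12 (-0.25 to 0.0016). *Trim63* was the 1 gene of the 10 higher there, at 0.16 (0.01 to 0.30), as were 15.3% of all genes. *Asb2* (-0.05) and *Fbxo32* (-0.03) had intervals that held 0. Terciles of 1 section describe that section, and the measures used for ranking share spots and UMIs with the genes.

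Pairs of the 10 genes had low correlations over spots. Over spots with at least 1000 UMIs the median Pearson r of the 45 pairs was 0.03 in the control and 0.06 in the transgenic section, and the highest were 0.10 (*Trim63* and *Asb2*) and 0.32 (*Trim54* and *Trim72*). Without the spots led by hemoglobin the latter was 0.14. The genes most like *Asb2* in the transgenic section without these spots were *Myh7* (r = 0.25), *Myom2* (0.20) and *Frmd5* (0.19), over 879 spots and 2338 genes. Those most like *Trim72* were *Tnnc1* (0.26), *Pdlim5* (0.24) and *Csrp3* (0.23), and those most like *Trim54* were *Mb* (0.24), *Pdlim5* (0.23) and *Myl2* (0.22). With the spots kept the values were higher, at 0.41 for *Asb2* and *Myh7*, 0.45 for *Trim72* and *Tnnc1* and 0.53 for *Trim54* and *Tnnc1*. *Trim63* was nearest to *Dsp* (0.18), which encodes desmoplakin, and to *Ankrd1* (0.15). In the control section the highest r of any of the 7 genes with at least 1000 UMIs was 0.14, over 1246 spots and 2278 genes, and with the spots kept it was 0.24, for *Asb2* and *Pln*. *Tnnc1*, *Csrp3*, *Myom2* and *Pln* are among the cardiomyocyte genes used for ranking spots, and *Myh7* is part of the *Myh7* share. These likenesses are therefore not separate from the tercile results. Spots share depth and cell makeup. Few UMIs per spot also hold r low whatever the relation, as for *Asb15* with 24 UMIs in the whole transgenic section. Values this low are given as a description and do not show that the genes are unrelated.

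The other parts of the ubiquitin system were read from lists. Of 12 other ASB genes with enough UMIs, *Asb18* was lower by at least 2-fold, with 507 control and 142 transgenic UMIs and a log2 ratio of -1.69, and *Asb9* was higher on 10 and 19 UMIs. Their median was 0.20, as for all genes, and with edgeR size factors *Asb9* did not pass 2-fold. *Asb11*, counted 2426 and 2513 times, stood at 0.20 and *Asb6* at 0.79. Of these 12, *Asb18* alone was thus lower by at least 2-fold, as *Asb2*, *Asb10*, *Asb14* and *Asb15* were. Its ratio was nearer 0 than any of theirs.

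Of 23 other ligases of heart and muscle, *Fbxl22*, an F-box gene of the cardiac Z-disc, was lower by at least 2-fold (4275 and 1227 UMIs, -1.65) and none was higher. *Fbxo31* (-0.97) and *Fbxw7* (-0.91) came next, and *Trim32* (0.77), *Traf6* (0.76) and *Nedd4* (0.63) stood highest, around a median of 0.12. With edgeR size factors 3 of the 23 were lower by at least 2-fold. Of 9 kelch adaptors of cullin 3 known from striated muscle, *Klhl31* (4977 and 943 UMIs, -2.25), *Klhl33* (-1.93), *Kbtbd12* (-1.53) and *Klhl30* (-1.10) were lower by at least 2-fold. *Klhl41*, which helps keep sarcomeres stable, was higher (704 and 1453 UMIs, 1.20). Per UMI of the cardiomyocyte genes 3 of the 9 were lower by at least 2-fold.

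The shared machinery differed less. None of 9 genes of the cullin ligase core passed 2-fold in either direction, and their median was 0.17. *Cul5*, the cullin of the ASB ligases, had 219 and 155 UMIs (-0.35), and *Cand1* (0.54), *Cand2* (0.49) and *Nedd8* (0.43), which serve the cycle of cullin activation, stood highest. Of 13 ubiquitin, E1 and E2 genes *Ube2n* was lower (229 and 97 UMIs, -1.09), the median was 0.11, and *Cdc34*, an E2 of cullin 1 ligases, stood at -0.80. Per UMI of the cardiomyocyte genes none of the 13 passed 2-fold.

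Of 18 genes known to control the wasting genes, *Hdac4* (-1.15) and *Foxo6* (-1.13) were lower by at least 2-fold. *Mstn*, which encodes the muscle growth inhibitor myostatin, was higher on 11 and 83 UMIs (3.07). Of the genes with at least 200 UMIs, *Nr3c1*, the glucocorticoid receptor, stood highest at 0.51, then *Foxo1* at 0.32, and *Akt2* was at -0.92. *Foxo3*, the FOXO factor best known for driving *Fbxo32*, stood at 0.08 with 2152 and 2053 UMIs, and was named after its value was seen. The median of the list was -0.07, and 5 of the 18 were lower by at least 2-fold with edgeR size factors and none per UMI of the cardiomyocyte genes.

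Of 13 genes whose proteins are known as substrates of these ligases, *Tnni3* (-1.92), *Myh6* (-1.69) and *Ckm* (-1.41), tied to MuRF1 and MuRF3, were lower by at least 2-fold. *Myh7* (7.87) and *Des* (1.52) were higher. *Flna* (0.91), tied to *Asb2*, passed 2-fold only per UMI of the cardiomyocyte genes. These are RNA levels and say nothing of how long the proteins last. Of 8 membrane repair genes read beside *Trim72*, *Anxa1* (1.80), *Anxa5* (1.71) and *Anxa2* (1.71) were higher by at least 2-fold, while *Cavin4* stood at -0.86, *Dysf* at -0.53 and *Cav3* at -0.34. With edgeR size factors *Cavin4* passed 2-fold. The share of fibroblast and macrophage genes given above was also higher in the transgenic section, and its part in these values was not tested.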

How the data were processed

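Visium CytAssist libraries were made from formalin-fixed, paraffin-embedded heart sections of 1 control and 1 transgenic mouse, and in this method probes that hybridize to a transcript are ligated and counted, so a gene's level also depends on its probes and the 10 genes were not ranked by level. The values used are raw UMI counts that the authors deposited for every gene in each spot over tissue, made with Space Ranger 2.0.0 per the file headers. The submitters' processing notes name bcl2fastq and the GRCm39 build, and the probe set is not given in the sources used here. The authors also deposited a score of spatial likeness, Moran's I, for each gene of a section.

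UMIs were summed per section and divided by 14376300 control and 12953389 transgenic UMIs (CPM). With 1 section per group there is no test between the groups, and no p value was computed. Poisson intervals of CPM, conditional binomial intervals of the ratio and Clopper-Pearson intervals of shares are exact, at 95%, and cover counting error only. The intervals of the ratio were checked on counts simulated from a Poisson model, which holds no variation between animals or sections. A gene was called lower or higher at a 2-fold difference with at least 20 UMIs over both sections. The Wilcoxon test that the study ran on spots was left out, since spots are not replicates. Scripts ran in Python 3.11.15 (numpy 2.4.6, scipy 1.17.1) and R 4.3.3 (edgeR 4.0.16, DESeq2 1.42.0, for size factors only).

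The 10 genes, the comparison lists and the alternatives were chosen with earlier results of these data known. Named genes were the 10 genes, up to 3 of the highest and 3 of the lowest ratios of each list among genes with at least 200 UMIs, the genes most like each of the 10 over spots, and single genes where a small count called for their names. The spots led by hemoglobin, and every value without them, were defined after seeing the data, as were the correlations and the mean over spots that use only spots with at least 1000 UMIs.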

Additional observations from a re-analysis of the deposited data

How the results depend on the processing

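With 1 section per group no value has a replicate check. No paired analysis was possible because each group has 1 section and the result comes from no test. Against a median log2 ratio of -0.89, edgeR TMM factors gave -1.05, DESeq2 size factors -1.04 and the UMIs of the cardiomyocyte genes as the scale -0.72. Under the first 2 scalings 6 of the 10 genes were lower by at least 2-fold in place of 4, beside 7.93% and 7.88% of all genes, and the count was 4 under the other settings. None was higher by at least 2-fold in any setting. Of 140 single log2 ratios, 112 stayed inside the counting interval, 28 left it and none of the called values changed sign. The 2 settings that changed only the floor of UMIs for a gene to be tested repeat the main ratios. Their values among the 112 were thus fixed in advance. Moran's I moved by over 0.05 from the deposited value for 5 genes, all in the transgenic section without the spots led by hemoglobin. In the control section *Asb2* went from a deposited 0.07 to 0.03 without these spots. The drop is wider within the recomputed index, which for *Asb2* was 0.098 over all control spots and 0.029 without these spots. Over control spots with at least 1000 UMIs it was 0.038. Thinning moved 19 of 20 shares of spots out of their interval. Depth limits *Asb15* and *Asb10* in the transgenic section, with 24 and 77 UMIs, most of all in terciles and quadrants.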
